A study of Mus musculus with 4 samples.

Results

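The 10 genes described here, Vegfa, Ndrg1, Ero1a, Pdk1, Bnip3, Ddit4, Egln1, Egln3, Slc2a1 and Slc2a3, are known to respond to low oxygen and lie outside the chain of glycolytic enzymes. They were taken by name. They and the gene lists below were chosen with earlier results of these data known, so counts set beside all-gene shares only describe. Every probe set with exactly 1 annotated gene symbol among the 10 was kept. This gave 25 of the 22690 probe sets of the series and 10 of its 12394 genes with 1 symbol. RNA was measured on 1-colour Affymetrix arrays in mouse P19 cells, an embryonal carcinoma line that takes neural fates when aggregated in retinoic acid. The control was the unmodified line (2 arrays), and the other group was P19 cells that constitutively express human LIN28A (2 arrays), which binds RNA and keeps let-7 microRNAs from maturing. Both lines were aggregated in Petri dishes for 4 days in serum-containing medium with all-trans retinoic acid at 5e-07 M. The labels number the arrays of each line 1 and 2 and give no oxygen level; the promoter of the transgene, and whether the LIN28A line is 1 clone or a pool, are not given in the sources used here.

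Cells sense oxygen through prolyl hydroxylases that mark the alpha subunits of hypoxia-inducible factors (HIF) for destruction while oxygen is present. When oxygen is low the marked fraction drops, HIF binds short elements with the core ACGTG or GCGTG, and genes for vessel growth, glucose uptake, a lowered mitochondrial use of pyruvate and mitophagy are switched on. The hydroxylase genes Egln1 and Egln3 are themselves HIF targets and form a negative feedback loop. Several of the 10 genes also answer to other stress: Ddit4, Vegfa and Ero1a can be induced by the unfolded protein and integrated stress responses, which act through the transcription factors ATF4 and CHOP.

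The promoter windows of RefSeq (build GRCm38.p6, 250 bases before to 50 after a start) matched 8 of the 10 genes by symbol, in 10 windows. Both strands were searched for the HIF core motifs ACGTG and GCGTG, and ACGTG was found in 7 of the 8 genes, against 21.8% of the 27025 genes in the table. Either motif was found in all 8 of these genes, against 46.7% of all genes. Vegfa enters both counts only through a window that lies within the gene. A match describes letters in a window and is not a binding site. The windows of 4 genes are shown because their levels set the array patterns below: Ero1a and Ddit4 were lower in both LIN28A arrays, and Bnip3 and Pdk1 stood high in control 1. They are written 5′ to 3′ on the strand of the gene, with each ACGTG or GCGTG core, or its reverse complement, in capitals. They lie at chr14:45318523-45318822, chr10:59951721-59952020 and chr7:138909457-138909756 on the minus strand and at chr2:71872974-71873273 on the plus strand.
Ero1a: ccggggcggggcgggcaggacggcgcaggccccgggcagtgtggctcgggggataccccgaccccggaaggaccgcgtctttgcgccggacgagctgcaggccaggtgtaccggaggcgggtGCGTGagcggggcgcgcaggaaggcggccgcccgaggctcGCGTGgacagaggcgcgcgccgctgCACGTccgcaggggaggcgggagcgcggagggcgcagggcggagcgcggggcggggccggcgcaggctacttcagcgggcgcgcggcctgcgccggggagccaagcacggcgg
Ddit4: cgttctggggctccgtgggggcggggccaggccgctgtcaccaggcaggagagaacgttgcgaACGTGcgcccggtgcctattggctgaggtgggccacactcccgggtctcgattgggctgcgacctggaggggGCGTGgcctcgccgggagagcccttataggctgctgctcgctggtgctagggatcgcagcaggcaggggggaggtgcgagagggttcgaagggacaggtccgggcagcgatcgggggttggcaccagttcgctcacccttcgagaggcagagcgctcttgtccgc
Bnip3: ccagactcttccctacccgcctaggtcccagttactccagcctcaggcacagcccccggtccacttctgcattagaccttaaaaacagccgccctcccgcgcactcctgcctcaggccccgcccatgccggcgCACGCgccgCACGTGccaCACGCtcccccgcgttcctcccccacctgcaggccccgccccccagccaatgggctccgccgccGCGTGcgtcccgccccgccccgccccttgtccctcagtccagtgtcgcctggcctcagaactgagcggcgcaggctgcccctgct
Pdk1: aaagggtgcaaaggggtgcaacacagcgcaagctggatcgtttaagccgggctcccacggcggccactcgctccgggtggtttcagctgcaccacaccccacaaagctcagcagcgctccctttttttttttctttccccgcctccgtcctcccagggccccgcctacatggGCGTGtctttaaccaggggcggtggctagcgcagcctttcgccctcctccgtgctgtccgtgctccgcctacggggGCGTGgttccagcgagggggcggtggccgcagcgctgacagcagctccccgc

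The Bnip3 window held 5 cores, the Ero1a window 3 and the Ddit4 window and the Pdk1 window shown 2 each, with overlapping matches on the 2 strands counted apart. The Vegfa window at the 5′ end of the gene, chr17:46032328-46032627, held 0 cores. The other, at chr17:46025114-46025413, lies within the gene (46016993-46032377) and held 2. A second Pdk1 window, at chr2:71874654-71874953, also held 0. The element of Vegfa that is best known to bind HIF lies further upstream than these windows reach.

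Values are the linear intensities that the authors deposited, and differences are on log2(intensity + 16), so those of dim probe sets are understated. Of the 25 probe sets, 23 passed a filter on low values (mean log2 value above the 30th percentile), and every gene kept at least 1. Where a gene has several probe sets, it is represented by the tested one with the highest mean, and the others are given beside it. In all, 15838 probe sets and 8930 genes were tested.

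Across the arrays, same-numbered arrays of different lines were more alike (Pearson's r of 0.97 for both numbers, across probe sets, which are not independent replicates) than arrays of one line (0.93 for control and 0.94 for LIN28A). Median intensities ranged from 29 to 38.6, and control 1 had the highest mean of the 18S ribosomal RNA probe sets (381, against 10.7 to 117 in the other arrays) and the highest beta-actin 3′ to 5′ ratio (4.71, against 2.76 to 3.37). The neural progenitor marker Sox2 read 1295 to 1902, but Sox1 of the same list read 11.6 to 36.7. The neuronal marker Stmn2 read 216 to 902, and Pou5f1, a marker of undifferentiated cells, 28.7 to 775. The endothelial markers Kdr and Tek read at most 17.6, and the other 4 of 6 endothelial markers did not pass the filter. The array carries probe sets for mouse Lin28a, and whether they detect the human transgene was not tested, so they do not check the labels. The brighter one read 30.7 in control 1, 76.2 in control 2, 56.1 in LIN28A 1 and 37.5 in LIN28A 2, and the other read 28.8, 15.5, 7 and 8.60 in that order.

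The main comparison asked whether these genes differ when LIN28A is kept on. All 10 genes had a negative log2 difference of LIN28A minus control, with a median of -1.03 against -0.04 over all genes tested, but no probe set of theirs passed limma's test. Without control replicate 1 that median was 0.079, and 9 of the 23 tested probe sets turned sign. Over all genes, 54.9% had a negative difference. Vegfa, Ndrg1, Ero1a and Ddit4 read lower in both LIN28A arrays than in both control arrays, 4 of 10 genes against a background of 16.6% of all genes. Over probe sets, 10 of the 23 tested did so, against 15.5%. Pdk1, Bnip3, Slc2a1, Slc2a3, Egln1 and Egln3 had overlapping arrays.

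Limma, without a block, called 0 of 15838 probe sets at an adjusted p under 0.05 in either direction (0%). At an unadjusted p under 0.05 it had 70 higher and 192 lower (1.21% lower), and 8 of the 23 tested probe sets of the 10 genes were among the lower ones: 4 of Ndrg1, 2 of Vegfa, 1 of Ero1a and 1 of Slc2a3. Limma's adjusted p was 1 for every one of the 23 probe sets. The labels do not say that the arrays came from separate cultures, so these p-values measure a spread that may be technical. In bulk RNA, fewer cells that express a gene and less RNA per cell cannot be told apart.

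**Figure D1:**
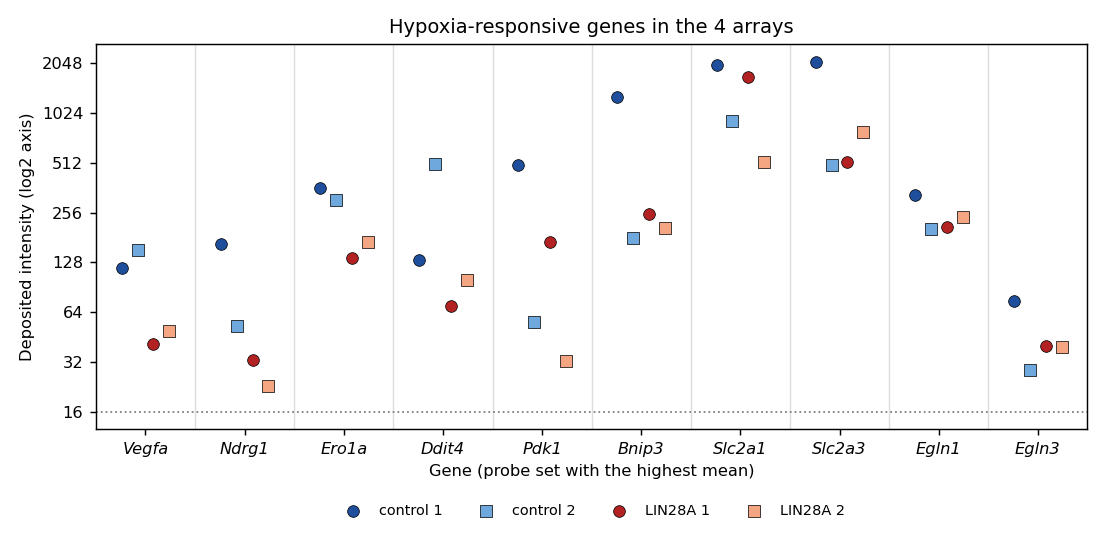
Deposited intensity (log2 axis) of the probe set with the highest mean of each gene in the 4 arrays, 1 point per array, with dark and light blue for control, red and light orange for LIN28A, circles for number 1 and squares for number 2; the dotted line marks the pseudocount of 16. Vegfa, Ndrg1, Ero1a and Ddit4 have both LIN28A points under both control points, and control 1 is the highest array for 8 of the 10 genes.

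Vegfa encodes the secreted growth factor that draws in blood vessels and is the ligand among the 10 genes. Its brighter probe set read 118 in control 1 and 151 in control 2 against 41.1 in LIN28A 1 and 49.0 in LIN28A 2. Both control arrays were high and both LIN28A arrays low, with control over LIN28A ratios of 2.86 in number 1 and 3.09 in number 2. The means were 135 ± 23.8 and 45.1 ± 5.59 (SD, n = 2), a log2 difference of -1.30 ± 0.30 (SE). Its second probe set was dim and kept the order, at 22.0 and 41.4 in control against 6.90 and 7.30 in LIN28A. Vegfa was the gene of the 10 with the closest match between the numbers: its difference was -1.23 in number 1 and -1.37 in number 2, and it ranged from -1.46 to -1.13 when 1 array was left out.

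Ndrg1, a stress-induced gene linked to growth arrest and differentiation, read 165 in control 1 and 53.1 in control 2 against 32.9 in LIN28A 1 and 22.9 in LIN28A 2 at its brightest probe set. The control arrays themselves differed by a ratio of 3.10, and both still lay above the LIN28A arrays. The log2 difference was -1.36 ± 0.50 (SE), with -1.88 in number 1 and -0.83 in number 2. The other 3 tested probe sets of Ndrg1 differed by -1.94, -1.46 and -0.89, and none of them had overlapping lines. The one that differed most read 207 in control 1, 53.7 in control 2, 18.4 in LIN28A 1 and 14.8 in LIN28A 2. The remaining probe set read between 0.50 and 11.1 and was not tested.

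Ero1a encodes the oxidase that passes electrons from protein disulfide isomerase to oxygen in the endoplasmic reticulum. It read 361 in control 1 and 304 in control 2 against 137 in LIN28A 1 and 169 in LIN28A 2. The control arrays lay close to each other (332 ± 40.3, SD, n = 2) and so did the LIN28A arrays (153 ± 22.9), for a log2 difference of -1.05 ± 0.29 (SE). Its other probe sets differed by -1.13 and -0.81, and at the first of them the lines overlapped, with 87.5 in control 2 and 93.9 in LIN28A 1.

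Ddit4 encodes REDD1, an inhibitor of mTORC1 signalling. It read 133 in control 1 and 502 in control 2 against 70.2 in LIN28A 1 and 100.3 in LIN28A 2. Control 2 stood far above the rest, and control 1 was only 1.32 times the higher LIN28A array. The log2 difference was -1.47 ± 0.61 (SE), with -0.79 in number 1 and -2.15 in number 2, and it was -0.57 without control replicate 2. Ddit4 has 1 probe set, so no second one bears on it.

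Pdk1 encodes a kinase that shuts pyruvate dehydrogenase and so keeps pyruvate out of the mitochondria. It read 494 in control 1 and 56.2 in control 2 against 170.1 in LIN28A 1 and 32.3 in LIN28A 2. The number split the arrays more than the line did: both arrays of number 1 lay above both of number 2, and within each number the LIN28A array was the lower. Its second probe set had the same order, at 304, 41.4, 101 and 25.3.

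Bnip3, a mitochondrial outer membrane protein that triggers mitophagy, read 1285 in control 1 against 181 in control 2, 249 in LIN28A 1 and 207 in LIN28A 2. One array therefore carried the difference: control 1 was 5.15 times the next highest, and the other 3 arrays lay within a narrow range. Without control replicate 1 the log2 difference of -1.06 ± 0.85 (SE) became 0.31.

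The glucose transporters Slc2a1 (GLUT1) and Slc2a3 (GLUT3) did not share a pattern. Slc2a1 read 1999.7 in control 1 and 918 in control 2 against 1691 in LIN28A 1 and 515 in LIN28A 2, and all 3 of its probe sets put both number 1 arrays above both number 2 arrays. Within each number the LIN28A array was the lower, by -0.24 and -0.82 at this probe set. Slc2a3 read 2093 in control 1 against 494 in control 2, 515 in LIN28A 1 and 783 in LIN28A 2, so that it was 4.07-fold lower in LIN28A within number 1 and not lower within number 2. The second bright probe set of Slc2a3 had the same order of control 1 above LIN28A 2 above LIN28A 1 above control 2. A dim one read 22.5 and 19.3 in control against 4.00 and 6.80 in LIN28A, which is another order, and the fourth was not tested.

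Egln1 (PHD2) and Egln3 (PHD3), the oxygen-sensing prolyl hydroxylases, differed least. Egln1 read 326 and 204 in control against 211 and 240.0 in LIN28A, with a log2 difference of -0.19 ± 0.33 (SE), and its second probe set differed by 0.11 ± 0.48 (SE). Egln3 read 74.8 and 28.8 against 40.1 and 39.7, a difference of -0.19 ± 0.40 (SE). For both genes control 1 was the highest array and control 2 the lowest, and the LIN28A arrays lay between them. The dim second probe set of Egln3 differed by -0.07, which turned to 0.13 under quantile normalization and 0.06 under median centring.

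**Figure D2:**
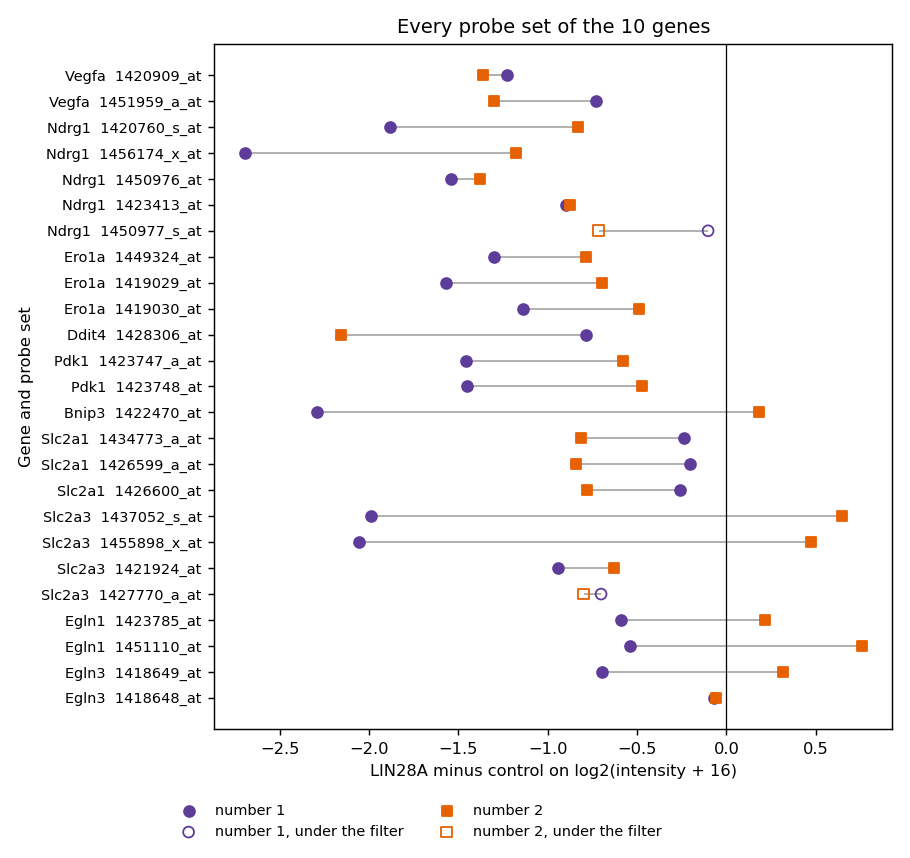
LIN28A minus control difference on log2(intensity + 16) for each of the 25 probe sets, within number 1 (purple circles) and within number 2 (orange squares), with open symbols for the 2 probe sets under the filter. Both symbols lie left of 0 for every probe set of Vegfa, Ndrg1, Ero1a, Ddit4, Pdk1 and Slc2a1, whereas Bnip3, Egln1, the brighter probe set of Egln3 and the 2 bright probe sets of Slc2a3 cross 0.

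Within number 1, all 10 genes read lower in LIN28A than in control, as did 58.7% of all genes, with a median log2 difference of -1.26 against -0.08. Within number 2 there were 6 of 10, near the 48.1% of all genes, with a median of -0.68 against 0.01. At least 2-fold lower in number 1 were Vegfa, Ndrg1, Ero1a, Pdk1, Bnip3 and Slc2a3, 6 of 10 genes against 2.67% of all genes. In number 2 these were Vegfa and Ddit4, 2 of 10 against 1.78%. Each of these comparisons sets 1 array against 1 array and has no test, and with 4 arrays the difference between the numbers in the effect of the line could not be tested either. By the probe set with the highest mean, Vegfa alone of the 10 genes passed 2-fold in both numbers on this scale, and 2 other probe sets of Ndrg1 did too (-2.69 and -1.18 for one, -1.54 and -1.38 for the other). In deposited intensity that probe set of Ndrg1 was also over 2-fold lower in both numbers, with control over LIN28A ratios of 5.00 and 2.32.

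**Figure D3:**
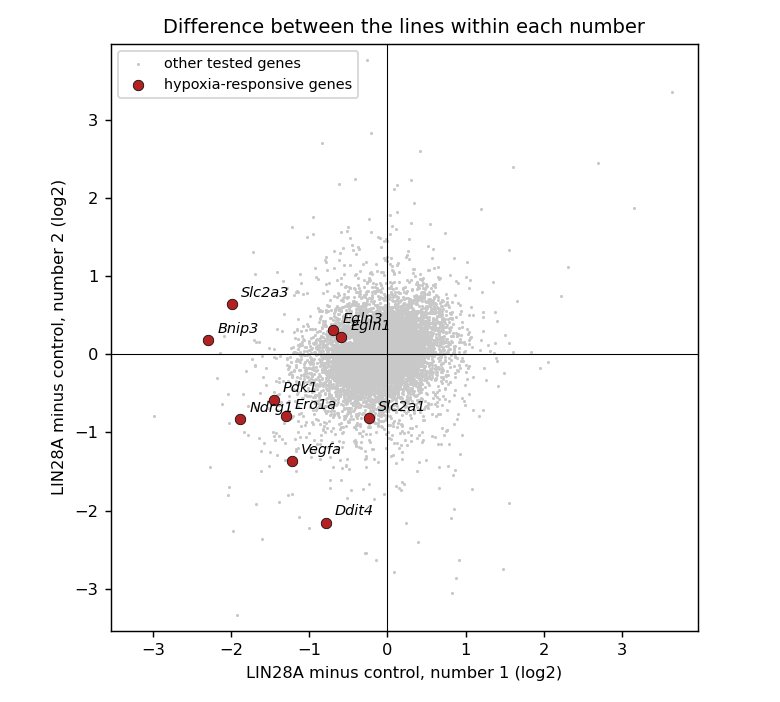
LIN28A minus control difference (log2 of intensity + 16) within number 1 (x axis) and within number 2 (y axis), 1 point per tested gene, with the 10 hypoxia-responsive genes in red. All 10 red points lie left of 0 and 6 of them also lie below 0; of the red points Ddit4 is furthest down at -2.15 and Bnip3 furthest left at -2.29.

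Replicate 2 was then compared with replicate 1 within each line. The comparison within control shares control 1 and control 2 with those between the lines, so its values are not independent of them. In control cells 8 of the 10 genes read lower in number 2, against 49.8% of all genes, with a median of -1.06 against 0.00 over all genes, and Ndrg1, Pdk1, Bnip3, Egln3, Slc2a1 and Slc2a3 were at least 2-fold lower, 6 of 10 against 3.4%. The ratio of control 1 to control 2 was 8.80 for Pdk1, 7.12 for Bnip3, 4.24 for Slc2a3 and 3.10 for Ndrg1. Ddit4 went the other way, with control 2 at 3.78 times control 1, where 4.26% of all genes were at least 2-fold higher.

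In LIN28A cells 5 of the 10 genes read lower in number 2, near the 41.8% of all genes, with a median of 0.08 that was -0.14 under quantile normalization and -0.15 under median centring. At least 2-fold lower were Pdk1 and Slc2a1, 2 of 10 against 2.24%. The ratio of LIN28A 1 to LIN28A 2 was 5.27 for Pdk1 and 3.28 for Slc2a1, whereas it was 1.20 for Bnip3 and 1.44 for Ndrg1. For Slc2a3 it was 0.66, the reverse of its ratio in control.

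Over both lines, limma's test of number 2 minus number 1 at the adjusted threshold of 0.05 called 211 probe sets lower (1.33%) and 464 higher. Of the 23 probe sets of the 10 genes it called 1, which was the brighter one of Pdk1. Pdk1 fell by 2.38 ± 0.46 (log2, SE) in number 2, with an adjusted p of 0.039 in limma's fit. Its other probe set differed by -1.99 (limma's adjusted p = 0.054), and the 3 of Slc2a1 by -1.40 to -0.97 (limma's adjusted p of 0.052 to 0.10). The Pdk1 call was lost with pseudocount 1 (limma's adjusted p = 0.11), pseudocount 64 (0.058), quantile normalization (0.0502) and no filter (0.11), and without control 1 (0.12), LIN28A 1 (0.086) or LIN28A 2 (0.055). The brightest probe set of Slc2a1 passed with the line as a block (limma's adjusted p = 0.030), median centring (0.032), eBayes trend (0.036), the filter at the 50th percentile (0.041) and pseudocount 64 (0.046), and without control 2 (0.022). Measures of RNA and hybridization also split by number in both lines. The mean of the 18S probe sets was 381 and 117 in number 1 (control, then LIN28A) against 10.7 and 11.9 in number 2, and that of the BioB spike-in probe sets was 386 and 218 against 127 and 123. The Gapdh 3′ to 5′ ratio was 1.15 and 1.12 against 0.78 and 0.82. Some cell type markers differed by number too. Pou5f1 rose by 3.61 (log2) in number 2 (limma's adjusted p = 0.015), the 1 called of 6 tested markers of undifferentiated cells. The other markers of that list did not share this rise. Nanog (-0.49), Dppa5a (-0.56), Fgf4 (-0.32) and Utf1 (-0.06) were lower in number 2, and Esrrb was higher by 0.21. Dcx rose by 1.29 (limma's adjusted p = 0.042), the 1 called of 8 neuronal markers. Both calls were lost with pseudocount 1 and with no filter, where limma called 0 probe sets. The part of these measures and of cell state in the number differences of Pdk1 and Slc2a1 was not tested.

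**Figure D4:**
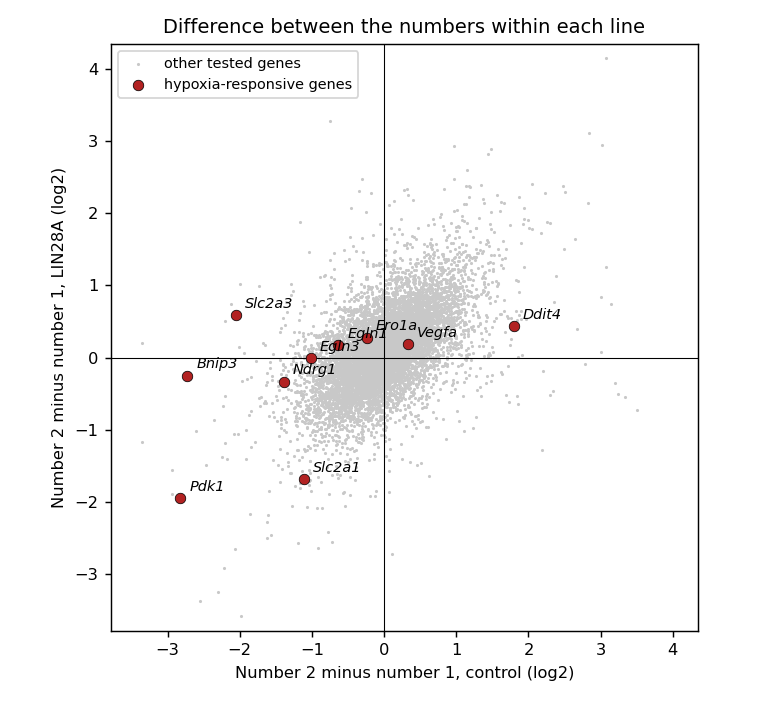
Number 2 minus number 1 difference (log2 of intensity + 16) in control (x axis) and in LIN28A cells (y axis), 1 point per tested gene, with the 10 hypoxia-responsive genes in red. Pdk1 (-2.82 and -1.95) and Slc2a1 (-1.11 and -1.69) lie low on both axes, Bnip3 (-2.73 and -0.25) and Slc2a3 (-2.05 and 0.59) only on the x axis, and Ddit4 (1.80 and 0.43) lies on the right.

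Control 1 was the highest array for 8 of the 10 genes, and it was the highest for 28.8% of all genes. It stood at least 2-fold above each other array for Ndrg1, Pdk1, Bnip3 and Slc2a3, 4 of 10 against 0.728% of all genes, a count chosen after the values were seen. The 18S and beta-actin values given above were also highest in control 1, and their part in this result was not tested. Vegfa and Ddit4 were the genes with control 2 as the highest array. Ddit4 stood at least 2-fold above each other array there, as did 0.616% of all genes.

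Other HIF targets outside glycolysis showed a like order of arrays. Of 37 listed genes, 27 were tested, and 24 lay below 0 in the comparison of the lines (54.9% of all genes did). Lower in both LIN28A arrays were 9 of the 27 (16.6% of all genes). Higher in both were 0 (1026 of all 8930 genes), and 0 passed limma's adjusted threshold. Their median was -0.34, with -0.64 in number 1 and -0.04 in number 2 (0.01 in number 2 under median centring), and control 1 was the highest array for 20 of the 27. Slc16a3, the lactate exporter MCT4, read 581 in control 1 against 42.3 in control 2, 59.4 in LIN28A 1 and 17.6 in LIN28A 2. Plod2, a collagen lysyl hydroxylase, read 515 and 95.8 in the controls, then 241 and 82.8 with LIN28A, the same split by number as Pdk1. Plod2 fell by 1.81 (log2) in number 2, with a limma adjusted p of 0.039. That call was lost with pseudocount 1 and with no filter, where limma called 0 probe sets between the numbers. Whether it holds under the other settings is not given here. Like Vegfa, some had both lines apart: Stc2, a secreted glycoprotein, read 40.7 and 55.8 in control against 12.8 and 12.9 in LIN28A, Lox, which cross-links collagen, read 38.5 and 36.3 against 7.50 and 14.3, and the repressor Bhlhe40 read 244 and 80.1 against 70.6 and 27.9. Wsb1, part of a ubiquitin ligase, read 523 and 551 against 328 and 412.

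Of 18 listed glycolytic enzymes, 14 were tested, and their median was -0.41 between the lines, -0.86 in number 1 and -0.03 in number 2 (0.02 under median centring). Like the 10 genes, all 14 lay below 0 between the lines (54.9% of all genes did). Lower in both LIN28A arrays were 2 of the 14, near the 16.6% of all genes. Control 1 was their highest array for 11 of 14, and number 2 lay below number 1 by a median of 1.37 in control and 0.49 in LIN28A. The phosphofructokinase gene Pfkp had the pattern of Vegfa, at 112 and 122 in control against 31.8 and 40.7 in LIN28A. Ldha, lactate dehydrogenase A, was split by number like Pdk1 but was not lower in LIN28A within number 2. It read 2470.4 and 432 in the controls, then 1491 and 522 with LIN28A. It fell by 1.98 (log2) in number 2 (limma's adjusted p = 0.025). Like that of Plod2, this call was lost with pseudocount 1 and with no filter, and whether it holds under the other settings is not given here.

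Genes that make and control HIF were set beside its targets. Of 12 listed, 8 were tested, and control 1 was the highest array for 1 of them (28.8% of all genes). Of the 8, 4 lay on each side of 0 (54.9% of all genes lay below 0). For 0 of them did the lines stand apart in both arrays, where 1484 of all 8930 genes were lower and 1026 higher. The median number 2 minus number 1 difference of the 8 was 0.53 in control and 0.82 in LIN28A (0.00 and 0.10 over all genes). Hif3a, whose products can restrain HIF, read 45.4 and 51.4 against 41.6 and 173 with LIN28A, and Cited2, which competes with HIF for its coactivators, read 580.2 and 833 against 293 and 765. Arnt, the beta subunit, read 32.5 and 22.7 against 5.10 and 23.5, and the ubiquitin ligase gene Siah2 read 27.8 and 82.2 against 25.5 and 36.1. These are RNA levels, and HIF alpha subunits are mainly controlled as proteins.

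Close relatives of the 10 genes were listed too. Of 23 listed paralogs, 11 were tested, 9 lay below 0 (54.9% of all genes did), 4 were lower in both LIN28A arrays (16.6% of all genes), and the median was -0.37. Vegfc read 95.3 and 77.0 in control against 43.0 and 58.9 in LIN28A, and Ndrg2 read 47.7 and 24.1 against 14.4 and 17.2. Slc2a4 read 62.2 and 59.5 against 34.5 and 51.0, and Ndrg4 235 and 437 against 117 and 326. Pdk3 read 299.5 and 83.3 against 244 and 152.

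Genes of the unfolded protein and integrated stress responses had another order, with control 2 on top. All 17 listed genes were tested, and control 2 was the highest array for 16 of them, against 24.8% of all genes. It stood at least 2-fold above each other array for 10 of the 17, against 0.616% of all genes. Within number 2, 14 of the 17 were at least 2-fold lower in LIN28A (median -1.65), against 1.78% of all genes. Within number 1 it was 0 of 17 (median 0.18), against 2.67%. In control, 13 of 17 were at least 2-fold higher in number 2 than in number 1 (median 1.51), where 4.26% of all genes were. In LIN28A it was 0 (median -0.35), where 501 of all 8930 genes were. Between the lines all 17 lay below 0 (54.9% of all genes did), and 3 were lower in both LIN28A arrays (16.6% of all genes). No gene of the list passed limma's adjusted threshold between the lines (0 of 17).

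Ddit3, which encodes CHOP, read 80.3 in control 1, 597 in control 2, 63.8 in LIN28A 1 and 88.9 in LIN28A 2. The CHOP target Trib3 read 23.2, 253, 25.6 and 23.0 in the same order, and the stress sensor Sesn2 5.20, 154, 21.4 and 23.6. Sdf2l1, a chaperone cofactor, read 30.4, 109, 21.2 and 22.0, whereas the disulfide isomerase Pdia4 read 93.9, 72.8, 66.4 and 25.4. Among the 10 hypoxia-responsive genes the array order of Ddit3 (control 2 far above the rest) was met by Ddit4, and in part by Vegfa. The control arrays thus stood high in different gene groups: control 1 in hypoxia-responsive and glycolytic genes, control 2 in stress-response genes and Ddit4. The part of either array in the differences between the lines was not tested.

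**Figure D5:**
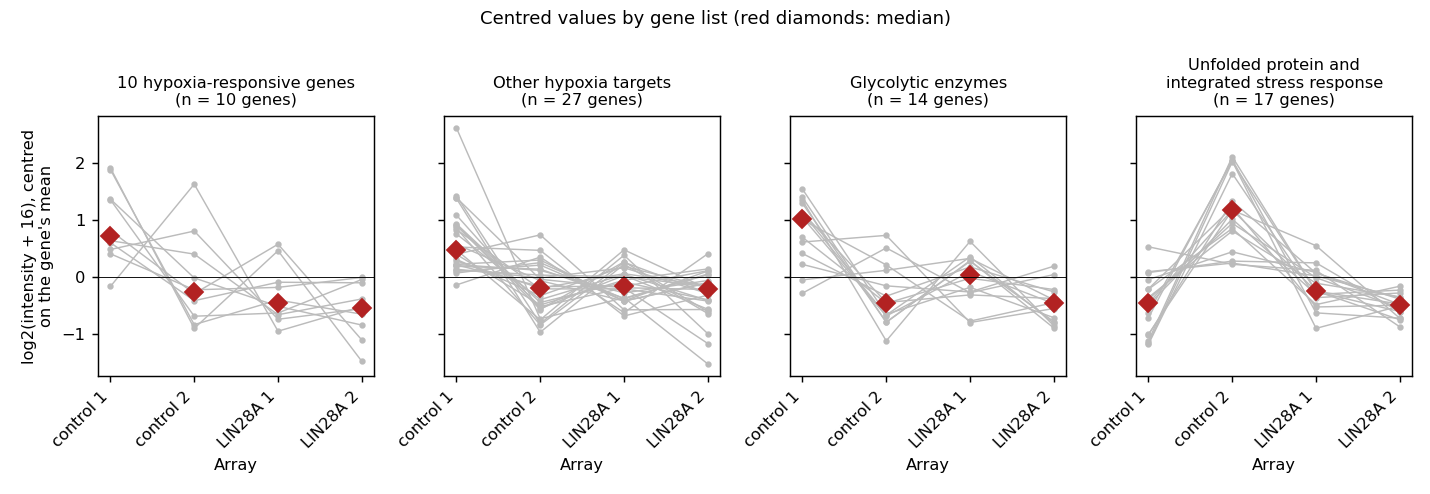
Values on log2(intensity + 16), centred on each gene's mean over the 4 arrays, for the 10 genes and 3 gene lists; gray points joined by lines are genes, lines only connect the points of a gene, and red diamonds are medians. The diamonds are highest in control 1 for the 10 genes, the other hypoxia targets and the glycolytic enzymes, and in control 2 for the unfolded protein and integrated stress response.

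Markers of cell types were set beside these values. The summed intensity of the 8 tested neuronal markers was 2494 and 3830.0 in control and 1327 and 2776 in LIN28A. All 8 lay below 0 between the lines (54.9% of all genes did), and 3 were lower in both arrays (16.6% of all genes). Among these 3 was Mapt at 232 and 182 against 61.0 and 36.5. The summed intensity of 4 tested fibroblast and smooth muscle markers (of 6) was 168 and 88.8 in control and 259 and 332 in LIN28A. Of these 4, 2 were higher in both arrays, as were 1026 of all 8930 genes. The 6 neural progenitor markers summed to 3069 and 4619 against 2943 and 2939, with 1 lower in both arrays (16.6% of all genes). Of these 6, 2 were lower in LIN28A within number 1 (58.7% of all genes) and 5 within number 2 (48.1%). The 6 tested markers of undifferentiated cells (of 8) summed to 187 and 424 against 88.5 and 867, of which Pou5f1 alone read 30.3 and 374 against 28.7 and 775. The 2 tested endoderm markers (of 6) summed to 24.8 and 23.2 against 24 and 63.6, and the 2 endothelial ones to 17.2 to 26.2. The part of cell composition in the values of the hypoxia-responsive genes was not tested.

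Among all other tested genes, those whose centred values lay nearest to the median profile of the 10 genes (root mean square distance over 4 arrays) were Krt18 (0.016), Hebp2 (0.040), Nr5a2 (0.041), Efemp1 (0.046) and Pcp4 (0.060). The median profile is itself highest in control 1, so that each of the 5 was highest there follows from how they were chosen. Nr5a2 and Efemp1 read under the pseudocount of 16 in every array but control 1. Hebp2 read 74.7 in control 1 against 33.5, 25.3 and 22.8 in control 2, LIN28A 1 and LIN28A 2. Krt18, a keratin gene, read 44.8 in control 1 and 9.30 to 14.3 in the others.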

How the data were processed

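RNA was measured on 4 arrays, 2 of each line. The authors deposited 1 table of linear intensity values, 1 column per array; per the labels' protocols the cRNA was made from oligo(dT)-primed cDNA and labelled with biotin, and the sources used here name no software for summary or scaling. Every array's mean after trimming 2% at each end was 150.1, so the values were used as scaled. The table holds no detection calls, and the number of arrays limits the precision.

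The 64 control probe sets were left out. Values became log2(value + 16), probe sets at or under the 30th percentile of the mean (about 8.04 linear) were dropped, and limma 3.58.1 in R 4.3.3 was run over all 15838 others (lmFit, eBayes, no block, Benjamini-Hochberg), for the line and for the replicate number. The fit was also run on simulated data with independent noise and no difference between the numbers. The real arrays do differ by number, so that run checks the code and not how the fit behaves here. With 2 arrays against 2 an exact permutation test cannot go below 0.333, so none is given. Symbols came from the platform annotation (20393 probe sets with 1, 691 with several, which were tested but not named). Members and lists were chosen with earlier results of these data known. Named genes are all members, and per list up to 4 with the smallest p between the lines and 2 with the largest difference between the numbers. The alternatives were other pseudocounts, filters and scalings, a block, and leaving out 1 array.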

Additional observations from a re-analysis of the deposited data

Results flagged for a closer look

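The values below come from single arrays, and the difference between the numbers was not tested. For 2 probe sets the LIN28A array lay below its control array in number 1 and above it in number 2, by at least 0.5 (log2) each way. At Egln1, at its dimmer probe set, the difference was -0.54 in number 1 and 0.76 in number 2, while its other probe set gave -0.59 and 0.22. At Slc2a3, at its brightest probe set, it was -1.99 and 0.65, and its second bright probe set gave -2.06 and 0.47.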

How the results depend on the processing

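For LIN28A against control, 0 probe sets were called under each planned setting except the replicate block, which called 1 (none of the 10 genes). The labels give the pairs no more than a number; deviations of arrays with one number correlated at r = 0.62 over probe sets. With the replicate block, 13 of the 23 probe sets had an unadjusted p under 0.05 in limma's fit, where 890 lower and 468 higher were found over all, and the smallest limma adjusted p among them was 0.28 (Ndrg1). The median of the 10 genes (-1.03) ranged from -1.19 to 0.079 without 1 array, the last without control replicate 1. The count of genes lower in both arrays ranged from 4 to 10, the last without control replicate 2. That count of 10 sets both LIN28A arrays against control 1 alone, which was the highest array for 8 of the 10 genes. No share over all genes is given for the counts without 1 array. Median centring moved the median over all probe sets from -0.05 to 0.08. The median number difference in LIN28A (0.08) became -0.14 with quantile normalization, -0.15 with median centring and -0.042 with probe sets averaged. The 675 calls between numbers became 329 with quantile normalization, 0 with pseudocount 1, 0 with no filter, 1028 with the filter at the 50th percentile, 1033 with eBayes trend, 1331 with the line as a block and 0 to 423 without 1 array. The dim Egln3 probe set turned to 0.13 (quantile) and 0.061 (median centring).

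Leaving out 1 array for single probe sets was chosen after seeing the data. Without control replicate 1, 9 of 23 turned sign, and without LIN28A replicate 2, 4 did. Ranges that crossed 0 were -2.43 to 0.39 and -2.20 to 0.28 (Pdk1), -2.42 to 0.31 (Bnip3), -0.50 to 0.13 and -0.57 to 0.79 (Egln1), -0.70 to 0.32 and -0.21 to 0.076 (Egln3), -1.37 to 0.32, -1.26 to 0.22 and -1.13 to 0.10 (Slc2a1), and -1.70 to 0.35 and -1.88 to 0.30 (Slc2a3). Those of Vegfa, Ndrg1, Ero1a and Ddit4 stayed below 0. These fits have unequal numbers in the lines, so part of the difference between numbers enters them. The cause of these shifts was not tested.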
